A study of Rattus norvegicus with 24 samples.

Results

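The extracellular matrix of the adult brain holds a family of proteins that bind the long sugar polymer hyaluronan and together make up perineuronal nets, the dense matrix coats around certain neurons, parvalbumin-expressing interneurons above all. The genes described are 10 parts of this matrix, chosen by name but with earlier results of these data known. They are the lecticans Acan, Bcan, Ncan and Vcan, the link proteins Hapln1, Hapln2 and Hapln4, the tenascins Tnr and Tnc, and Ptprz1. They lie at 11 of the 26641 loci that carry a gene name in the deposited table of 42334 loci, Hapln4 at a pair of loci and the others at 1 each. Hapln4 was listed at 0 in all 24 libraries, so 9 of the 10 genes could be tested.

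Messenger RNA was measured in perilesional cortex and ipsilateral thalamus of adult male Sprague-Dawley rats 3 months after surgery, with stranded sequencing of polyadenylated RNA. The TBI group held 6 rats with lateral fluid-percussion injury, a brain injury made by a pressure pulse onto the exposed dura. The sham group held 6 rats that had anaesthesia and the surgery without the pulse, so both groups carry the operation. Both regions came from the same 12 rats, 1 library per rat and region. The study chose its TBI rats by magnetic resonance imaging for chronic inflammation around the lesion, so they stand for that kind of injured animal and not for all of them. The values are normalized counts, that is, fragment counts per locus that the authors scaled between libraries with 1 size factor each.

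Lecticans are chondroitin sulfate proteoglycans: a core protein whose one end grips hyaluronan and whose other end grips tenascins, with sulfated sugar chains between. Link proteins clamp the lectican to hyaluronan, and the tenascin Tnr, as a trimer, ties several lecticans together, so that the net becomes a mesh. Acan marks mature nets, Tnc is a tenascin of development and of reactive glia, and Ptprz1 codes for a receptor phosphatase of glia whose secreted form, phosphacan, is itself a proteoglycan of the net.

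Depth ran from 30568927 to 54608922 recovered reads per library, and a count of 3 reads, taken as the floor, lay far under every tested member. The regions carried their own markers: Tcf7l2, a thalamic transcription factor, lay between 11268 and 15813 in sham thalamus and between 185 and 264 in sham cortex, and Tbr1, a cortical one, between 4540 and 5545 in sham cortex and between 55.7 and 131 in sham thalamus. Within a group the libraries correlated at 0.968 or above across 15678 loci, the lowest value coming from TBI thalamus. In every group the highest library in summed choroid plexus markers lay far over the group's median, at 22860 against 1963 in sham cortex, 30913 against 635 in TBI cortex, 105231 against 1096 in sham thalamus and 251937 against 1318 in TBI thalamus, and their part in the members' values was not tested.

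The 250 bases before the annotated start of 3 members are shown because these 3, Acan, Hapln1 and Tnc, are the ones whose level differed between TBI and sham rats in both regions. The windows come from RefSeq for the build GRCr8, which is not the build of the count table, and are written 5′ to 3′ along the gene. Capitals mark the GC box (GGGCGG), the TATA box (TATAAA) and the AP-1 site (TGANTCA), each searched on both strands. The Acan window lies at chr1:142390701-142390950 on the plus strand, the Hapln1 window at chr2:22366717-22366966 on the plus strand and the Tnc window at chr5:82476132-82476381 on the minus strand.
Acan: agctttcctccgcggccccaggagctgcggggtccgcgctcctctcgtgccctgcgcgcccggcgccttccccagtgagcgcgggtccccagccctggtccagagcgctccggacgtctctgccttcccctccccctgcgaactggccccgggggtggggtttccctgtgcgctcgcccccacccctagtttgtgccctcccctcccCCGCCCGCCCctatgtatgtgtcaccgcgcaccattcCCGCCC
Hapln1: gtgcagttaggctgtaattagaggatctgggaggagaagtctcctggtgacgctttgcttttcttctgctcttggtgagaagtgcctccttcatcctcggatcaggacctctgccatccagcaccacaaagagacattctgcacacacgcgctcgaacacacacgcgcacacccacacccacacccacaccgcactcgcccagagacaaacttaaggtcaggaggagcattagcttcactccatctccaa
Tnc: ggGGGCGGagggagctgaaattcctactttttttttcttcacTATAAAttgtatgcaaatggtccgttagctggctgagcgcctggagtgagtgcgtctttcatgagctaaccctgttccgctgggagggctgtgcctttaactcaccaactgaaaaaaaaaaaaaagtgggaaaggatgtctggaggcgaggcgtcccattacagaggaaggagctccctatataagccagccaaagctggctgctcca
Acan holds 3 GC boxes, all read on the opposite strand, whose first bases lie 43, 39 and 6 bases before the start, the first 2 of them overlapping. Tnc holds 1 GC box and 1 match to TATAAA, 248 and 208 bases before the start, and none of these letters occur in the Hapln1 window. Only the exact letters were searched, so the TATA-like stretch tatataag near the end of the Tnc window is not marked. The match at 208 is therefore not given as the working TATA box of Tnc. Of 33469 windows of this length, 30.5% hold a GC box, 12.9% a TATA box and 6.34% an AP-1 site. The share of G and C was 73.6% in Acan, 54.0% in Hapln1 and 49.6% in Tnc, against a median of 51.2% over all windows. By symbol, 9 of the 10 members had an entry (Ptprz1 did not), in 10 windows, and none of the 10 holds an AP-1 site. These matches describe letters and not binding.

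**Figure D1:**
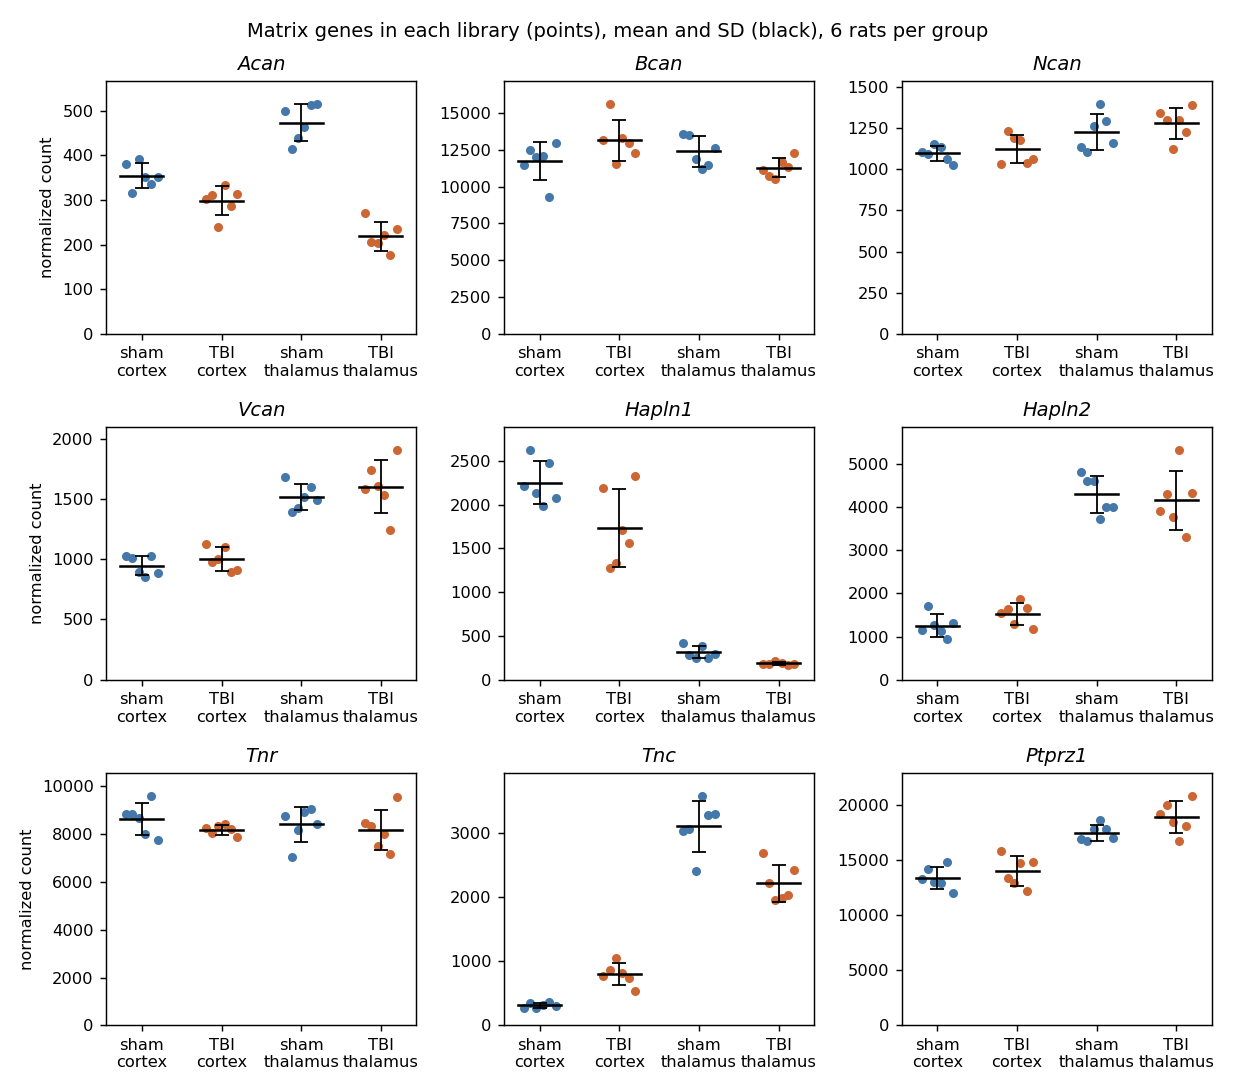
Normalized count (vertical axes, linear and starting at 0) of the 9 measured members in each of 24 libraries (points, 6 per group), with the mean and SD in black and sham rats in blue, TBI rats in orange. Acan and Hapln1 of TBI thalamus lie under all sham thalamus libraries, and Tnc of TBI cortex lies above all sham cortex libraries.

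The first comparison asks how these genes stood in the tissue around the lesion 3 months after injury. In the perilesional cortex Tnc rose 2.50-fold, Acan fell to 0.839 and Hapln1 to 0.753 of the sham level, and the other 6 measured members did not pass the test. The test was limma on log2(normalized count + 1), with Benjamini-Hochberg adjustment over the 15493 named loci with a mean of at least 10 and a threshold of 0.05, and differences are on that log2 scale. At this threshold 29.2% of all loci were called, 14.3% higher and 14.9% lower, so 3 of 9 members is a share near that of all loci.

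Among the lecticans, Acan, the core proteoglycan of the mature net, lay between 316 and 393 in sham cortex with a median of 352. In TBI cortex it lay between 240 and 334 with a median of 307. The groups overlapped, with 5 of 6 TBI rats under all sham rats. The difference was -0.25 ± 0.086 on the log2 scale (SE, n = 6 per group), with an adjusted p of 0.0370 by limma. That call was lost when any 1 of 7 libraries was left out, those of sham rats 26, 34, 38 and 55 and of TBI rats 22, 45 and 56, with adjusted p values between 0.0561 and 0.0823. Across all libraries left out in turn the difference stayed between -0.29 and -0.19. It was also lost under upper quartile scaling (adjusted p = 0.0572) and without the filter on low values (adjusted p = 0.0536).

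The other lecticans are the brain-specific Bcan and Ncan and the more widely made Vcan, which oligodendrocyte precursors express. Bcan had a median of 12049 in sham cortex (9297 to 12946) and of 13079 in TBI cortex (11504 to 15602). Its difference was 0.17, with a 95% confidence interval from -0.01 to 0.34 and an adjusted p of 0.135 by limma. Ncan and Vcan differed by 0.03 (-0.09 to 0.16) and 0.08 (-0.08 to 0.24). For all 3 the TBI and sham rats overlapped.

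Of the link proteins, Hapln1, the main one of cortical nets, lay between 1990 and 2627 in sham cortex with a median of 2174. In TBI cortex its median was 1635 and its range 1273 to 2332. The range within the TBI group was wide: 4 of 6 rats lay under all sham rats and the other 2, rats 22 and 63, lay among them. The difference was -0.41 ± 0.135 (SE, adjusted p = 0.0332 by limma). Without any 1 of 7 libraries, those of sham rats 26, 32 and 50 and TBI rats 24, 45, 52 and 56, it did not pass, with adjusted p values between 0.0526 and 0.0758. Nor did it with edgeR on the recovered reads (adjusted p = 0.0605).

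Hapln2, the link protein of nodes of Ranvier in white matter, had a median of 1205 in sham cortex (933 to 1715) and of 1588 in TBI cortex (1174 to 1876). Its difference of 0.29 (0.01 to 0.58) had an adjusted p of 0.110 by limma. It passed when sham rat 32 (adjusted p = 0.0241) or TBI rat 63 (adjusted p = 0.0406) was left out. Hapln4, the link protein of inhibitory synapses in brainstem and cerebellum, was listed at 0. The 0 of Hapln4 is not taken as a measured absence, and its cause was not tested. No locus carried the name of Mbp, a main myelin gene, or of Fn1, so neither was measured.

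Of the tenascins, Tnc lay between 265 and 365 in sham cortex, with a median of 316. In TBI cortex it lay between 533 and 1055, with a median of 794. No TBI rat overlapped with any sham rat, as was so for 12.5% of all loci in this region. The difference was 1.32 ± 0.132 (SE, adjusted p = 1.11e-05 by limma). It passed under every alternative, with differences between 1.23 and 1.43. Tnr, the crosslinking tenascin, had medians of 8765 in sham and 8236 in TBI cortex and differed by -0.07 (-0.18 to 0.04). Ptprz1, the phosphacan gene, had medians of 13120 and 14046 and differed by 0.06 (-0.08 to 0.21). For both of these the groups overlapped.

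The second comparison asks the same of the ipsilateral thalamus, which is away from the impact but wired to the injured cortex. There Acan fell to 0.460 and Tnc to 0.714 of the sham level and Hapln1 fell by 0.74 on the log2 scale, so that all 3 called members were lower. Of all 15564 loci tested, 35.4% were called, 14.5% higher and 20.9% lower, and 3 of 9 members is again near the share of all loci. The split of these calls moved with the scaling. Of the called loci 59.0% were lower with the deposited values, 57.9% with TMM scaling and 50.8% with DESeq2. With upper quartile scaling 48.0% were lower, and with edgeR 44.9%.

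Acan lay between 414 and 515 in sham thalamus, with a median of 481. In TBI thalamus it lay between 176 and 271, with a median of 214. No TBI rat overlapped with the sham rats, as was so for 18.2% of all loci in the thalamus. The difference was -1.12 ± 0.101 (SE, adjusted p = 2.23e-06 by limma), and it stayed between -1.18 and -1.06 under every alternative. Bcan had medians of 12230 in sham and 11232 in TBI thalamus and differed by -0.13 (-0.26 to -0.01), with an adjusted p of 0.0982 by limma. Ncan and Vcan differed by 0.06 (-0.08 to 0.21) and 0.07 (-0.12 to 0.25), with overlapping groups.

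Hapln1 lay between 248 and 422 in sham thalamus, with a median of 290. In TBI thalamus it lay between 162 and 212, with a median of 182. The groups did not overlap. The difference was -0.74 ± 0.132 (SE, adjusted p = 0.000659 by limma) and passed under every alternative, between -0.80 and -0.64. Hapln2 had medians of 4308 and 4112 and differed by -0.06 (-0.27 to 0.16), a direction that turned in 2 alternatives.

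Tnc lay between 2404 and 3576 in sham thalamus, with a median of 3163. In TBI thalamus it lay between 1954 and 2681, with a median of 2124. The groups overlapped through sham rat 34, at 2404, with 4 of 6 TBI rats under all sham rats. The difference was -0.49 ± 0.097 (SE, adjusted p = 0.00148 by limma) and passed under every alternative, between -0.56 and -0.44. Tnr had medians of 8597 and 8185 and differed by -0.04 (-0.20 to 0.12). Ptprz1 had medians of 17363 and 18785 and differed by 0.11 (-0.01 to 0.23), with an adjusted p of 0.148 by limma. With edgeR (adjusted p = 0.0374), with DESeq2 (adjusted p = 0.0380) and without TBI rat 52 (adjusted p = 0.0481) Ptprz1 passed as higher.

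**Figure D2:**
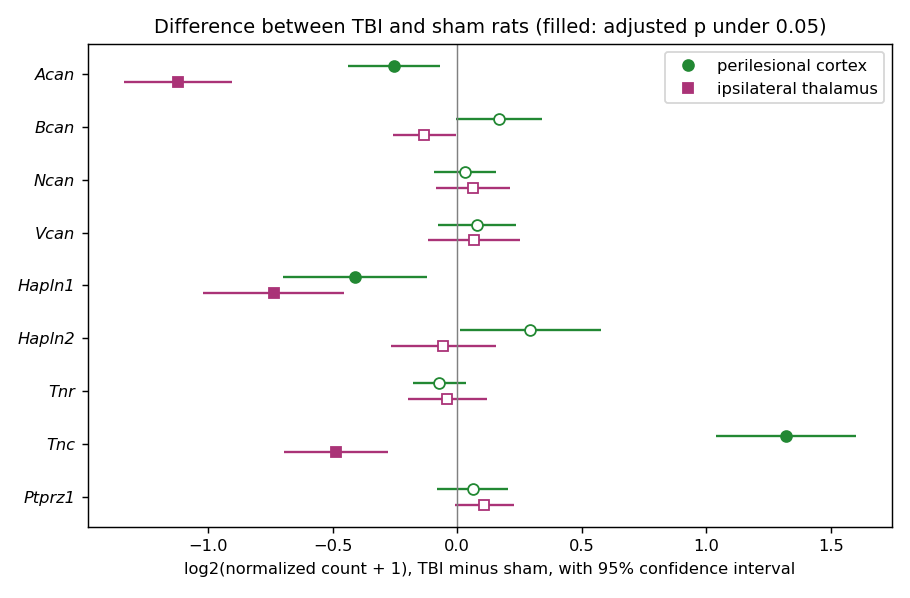
Difference of log2(normalized count + 1) between TBI and sham rats (horizontal axis, TBI minus sham) with its 95% confidence interval for 9 members, in perilesional cortex (green circles) and ipsilateral thalamus (purple squares), n = 6 per group. Filled symbols passed the test. Tnc stands at 1.32 in cortex and at -0.49 in thalamus, and Acan at -0.25 and -1.12.

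The third comparison tests whether the injury effect itself differed between the regions, as an interaction over all 24 libraries. It did for Acan and Tnc, 2 of the 9 members, both toward lower values in the thalamus. Of all 15678 loci 7.26% were called, 2.72% with a higher and 4.54% with a lower effect in the thalamus. That balance depended on the scaling. Of the called loci 62.5% were lower with the deposited values, 64.1% with TMM scaling, 58.7% with DESeq2 and 53.0% with upper quartile scaling. It turned to 47.0% with TMM over loci past the filter and 48.1% with edgeR. For Acan the effect in thalamus minus that in cortex was -0.87 ± 0.132 (SE, adjusted p = 0.000204 by limma). For Tnc, which rose in one region and fell in the other, it was -1.81 ± 0.173 (SE, adjusted p = 3.33e-07 by limma). Hapln1 fell in both regions and its interaction of -0.33 (-0.73 to 0.08) did not pass, with an adjusted p of 0.348 by limma. Bcan had an interaction of -0.30 (-0.51 to -0.08) and an adjusted p of 0.0828, over the threshold.

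Rat 45 had the closest likeness between its 2 libraries, and its cortex library was the highest in Tnc and the lowest in Acan. Without both libraries of rat 45 the interaction was -0.91 for Acan (adjusted p = 0.000135) and -1.68 for Tnc (adjusted p = 8.45e-07), by the same limma fit. Both calls stood in each of the other alternatives as well. With the rat as a block the adjusted p was 0.000591 for Acan and 2.60e-05 for Tnc.

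The fourth comparison gives the levels of the members by region in the sham rats. Tnc was 9.84-fold higher in thalamus than in cortex, Hapln2 3.47-fold, Vcan 1.60-fold, Acan 1.33-fold and Ptprz1 1.31-fold, while Hapln1 stood in the thalamus at 0.137 of its cortical level. Of all loci 61.4% were called between the regions, 33.5% higher and 27.9% lower in thalamus, so a call here is common.

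On the log2 scale the difference was 3.30 ± 0.123 for Tnc (SE, adjusted p = 8.34e-18 by limma) and -2.87 ± 0.140 for Hapln1 (SE, adjusted p = 2.07e-15). Ncan passed at 0.16 (adjusted p = 0.0325 by limma), and lost the call with edgeR (adjusted p = 0.0704), with DESeq2 and with TMM scaling, and when the cortex library of sham rat 50 or 55 or the thalamus library of sham rat 34, 38 or 50 was left out (adjusted p between 0.0596 and 0.0997). Bcan at 0.08 (-0.07 to 0.24) and Tnr at -0.04 (-0.17 to 0.09) did not pass. The Tnr means were 8627 in cortex and 8400 in thalamus.

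In TBI rats the order of the regions was different for Acan. Its mean in the thalamus was 219 against 298 in the cortex, a difference of -0.45 (adjusted p = 0.000182 by limma), where sham rats had 474 against 355. The Tnc difference between regions was 1.49 (adjusted p = 7.78e-11 by limma), with means of 2213 in thalamus and 796 in cortex. Hapln1 differed by -3.19, Hapln2 by 1.45, Vcan by 0.67, Ptprz1 by 0.44 and Ncan by 0.19. Bcan differed by -0.21 (adjusted p = 0.0146 by limma), a call lost without the cortex library of TBI rat 24 (adjusted p = 0.0504). In all, 8 of 9 members were called, where 60.6% of all loci were, 32.7% higher and 27.9% lower. Tnr was the exception, at -0.01 (-0.14 to 0.13).

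**Figure D3:**
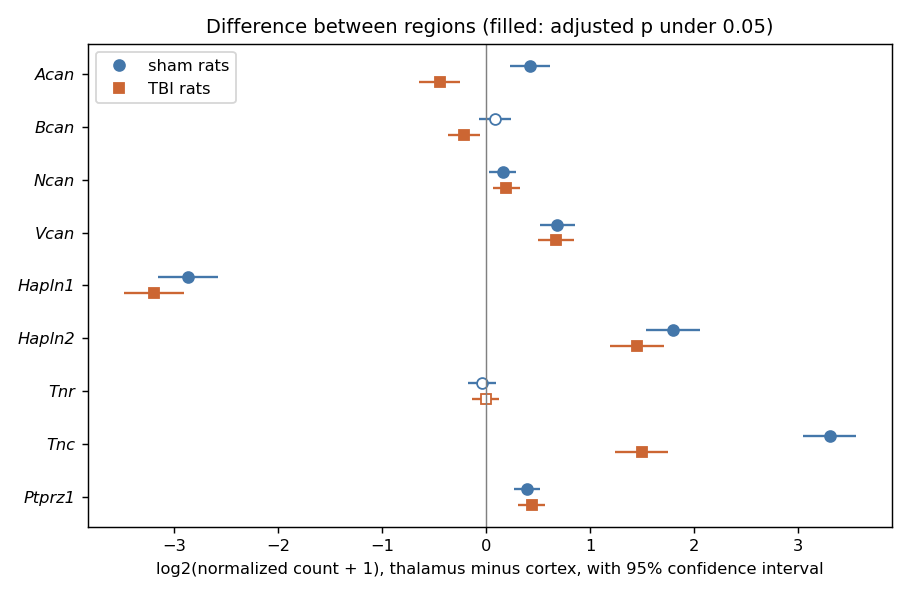
Difference of log2(normalized count + 1) between thalamus and cortex (horizontal axis, thalamus minus cortex) with its 95% confidence interval for 9 members, in sham rats (blue circles) and TBI rats (orange squares), n = 6 per group. Filled symbols passed the test. Acan lies on opposite sides of 0 in the 2 kinds of rats, and Tnc moves from 3.30 to 1.49.

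Markers of neurons moved with Acan and Hapln1. Of the 7 parvalbumin neuron markers, 6 fell in cortex and 7 in thalamus, with medians of -0.42 and -0.89 against medians of -0.01 and -0.02 over all loci. Of all loci 14.9% were called lower in cortex and 20.9% in thalamus. The 7 markers were Pvalb, Kcnc1, Kcnc2, Syt2, Gad1, Gad2 and Slc32a1, and not all of them are particular to parvalbumin neurons. Pvalb, the calcium-binding protein that names these cells, lay between 5138 and 7339 in sham thalamus and between 1318 and 3414 in TBI thalamus. Over the list, the summed level lay between 59745 and 77420 in sham thalamus and between 24659 and 42397 in TBI thalamus. Kcnc2 made up a large part of these sums, with a mean of 29926 in sham and 17204 in TBI thalamus. In cortex the sums lay between 43180 and 48120 in sham rats and between 31100 and 39975 in TBI rats, so that the groups overlapped in neither region. Of 7 general neuron markers 5 fell in each region, with medians of -0.28 and -0.45. Identity markers of each region fell as well, 3 of 5 cortical ones in cortex (median -0.33) and 4 of 5 thalamic ones in thalamus (median -0.54). In pieces of tissue, fewer cells of a type and less RNA per cell cannot be told apart.

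Set against the mean log2 level of the parvalbumin neuron markers in the same library, the Acan difference was 0.13 in cortex and -0.06 in thalamus, and that of Hapln1 was -0.03 and 0.32, with overlapping groups in all 4 cases. That mean itself fell by 0.38 in cortex and 1.06 in thalamus, which raises every member set against it. In thalamus Bcan, Ncan, Vcan, Hapln2, Tnr and Ptprz1, not called there by limma, stood between 0.92 and 1.16. For each of them all 6 TBI rats lay above all sham rats. Set against the general neuron markers, Acan stood at 0.06 in cortex and at -0.71 in thalamus, where all 6 TBI rats still lay under all sham rats. Hapln1 stood at -0.10 and -0.33. These relative levels are descriptions with no test, and the part of cell number in the Acan and Hapln1 differences was not tested.

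Markers of fibroblasts and microglia and a part of the astrocyte markers rose with Tnc in the cortex. Beside the counts in this paragraph, 14.3% of all loci were called higher and 14.9% lower in cortex, and 14.5% and 20.9% in thalamus. Of 8 astrocyte markers 4 rose and 2 fell in cortex, and 4 rose and none fell in thalamus. Gfap, the filament protein of reactive astrocytes, led at 2.26 in each region, while the medians of the list were 0.13 and 0.18. Their summed level was 313886 to 336168 in sham and 336908 to 382719 in TBI cortex. Within these sums the Gfap mean was 12344 in sham and 59944 in TBI cortex, that of Slc1a2 185200 and 160246, and that of Aldoc 49244 and 42475. The mean log2 level of the 8 markers rose by 0.38 in cortex and 0.47 in thalamus, more than the list medians, and Gfap weighs on it. Set against the mean of these markers, the Tnc difference was 0.94 in cortex, with all 6 TBI rats above all sham rats, and -0.96 in thalamus, with all 6 under them. Against the general neuron markers the Tnc difference in thalamus was -0.08, and against the parvalbumin neuron markers it was 0.57, so its sign there depends on the list it is set against. The fibroblast markers, collagens with Lum and Dcn, rose in the cortex in 5 of 5 cases, from a summed 6349 to 8390 in sham to 9656 to 21798 in TBI rats. In thalamus none of the 5 passed, with sums of 1082 to 4926 in sham and 1208 to 20349 in TBI rats. Microglia markers rose in 6 of 7 cases in cortex and 7 of 7 in thalamus. The part of any of these cells in the Tnc difference was not tested.

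Markers of the oligodendrocyte lineage are given beside Vcan and Hapln2. Of 6 oligodendrocyte precursor markers 4 rose in cortex, with a median of 0.28, and 1 rose in thalamus. Of 7 measured oligodendrocyte markers 3 rose in cortex and 1 in thalamus, and no locus carried the name Mbp. Of all loci 14.3% were called higher in cortex and 14.5% in thalamus, so the thalamus counts of both lists are near that share. Their summed level was higher in thalamus, at 397824 to 546274 in sham rats, than in cortex, at 124716 to 166903, as the Hapln2 level was. The part of these cells in the Hapln2 and Vcan levels was not tested.

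**Figure D4:**
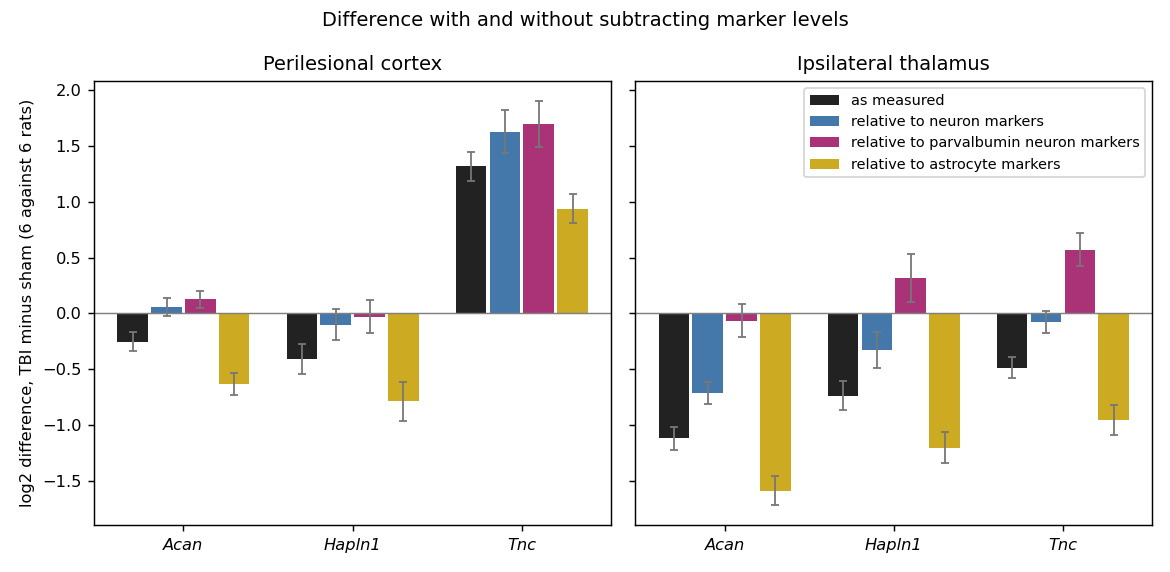
Difference of log2 level between TBI and sham rats (vertical axis, TBI minus sham, 6 against 6 rats) for Acan, Hapln1 and Tnc as measured (black, error bar the SE of the limma fit) and after subtracting the mean log2 level of neuron (blue), parvalbumin neuron (purple) or astrocyte (yellow) markers of the same library (error bar the SE from the SDs of both groups). Relative to parvalbumin neuron markers Acan stands at 0.13 in cortex and -0.06 in thalamus, and Tnc in cortex stands between 0.94 and 1.70 against the 3 lists.

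The partners of these genes in the matrix moved in part. The counts in this and the following lists stand beside 29.2% of all loci called in cortex and 35.4% in thalamus. Of 13 measured other net and matrix genes, 6 rose and 2 fell in cortex (median 0.18), and 3 rose and 4 fell in thalamus (median 0.15). Cd44, a hyaluronan receptor, rose by 2.08 in cortex and 1.80 in thalamus, its lowest TBI library at 668 and 758 and its highest sham library at 257 and 360. In cortex it was followed by the small proteoglycans Dcn at 0.86, Lum at 0.78 and Bgn at 0.68, of which Dcn and Lum are also fibroblast markers. In thalamus the tenascin Tnxb rose by 0.70, and the testicans Spock1 and Spock2 fell by 0.39 and 0.38. The highest TBI thalamus library of Tnxb stood at 1452 against a median of 763, with 421 to 590 in sham thalamus. Nptx2, a pentraxin of excitatory synapses onto parvalbumin neurons, fell in both regions, by 0.37 and 0.25.

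Genes of hyaluronan synthesis and breakdown counted 9 measured at 8 loci, since the files join Hyal1 and Hyal3 in 1 locus with the same values. In cortex Has1, a hyaluronan synthase, fell by 0.50, from 38.6 to 66.9 in sham rats to 29.7 to 47.9 in TBI rats, while Hexa, which codes for a lysosomal glycosidase subunit, rose by 0.44. In thalamus Hexa rose by 0.55 and the cell-surface hyaluronidase Tmem2 by 0.26, and none fell. The medians over the 8 loci were -0.01 in cortex and 0.12 in thalamus. Of 6 measured lectican proteases, Adamts9 rose by 0.95 in cortex and 0.90 in thalamus. Adamts4, an aggrecanase, rose by 0.40 in cortex and stood at 0.17 in thalamus, Adamts8 fell in cortex by 0.51, and Adamts1 rose by 0.52 in thalamus. The highest TBI thalamus library of Adamts1 stood at 1456 against a median of 736, with 484 to 821 in sham thalamus. For this list the median was -0.05 in cortex and 0.15 in thalamus.

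Enzymes that build the chondroitin sulfate chains counted 13 measured, of which 1 rose and 2 fell in cortex, and 1 rose and 6 fell in thalamus. Of all loci 14.3% were called higher and 14.9% lower in cortex, and 14.5% and 20.9% in thalamus. Dse, the dermatan sulfate epimerase, rose in both regions, by 0.47 and 0.73. Its highest TBI thalamus library stood at 755 against a median of 274, with 152 to 318 in sham thalamus. In cortex the xylose kinase Fam20b and the chain-starting Csgalnact1 fell by 0.21 and 0.15. In thalamus the polymerising factors Chpf and Chpf2 fell by 0.47 and 0.27 and the linker enzyme B3gat3 by 0.33. Medians were -0.05 and -0.14.

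Of 14 receptors and ligands of the matrix, 3 fell in cortex and none rose, and 2 rose and 3 fell in thalamus. These counts are near or under the shares of all loci, 29.2% called in cortex and 35.4% in thalamus. Sema3a, a guidance protein bound in nets, fell in cortex by 0.44, the integrin Itgav by 0.31 and the Ptprz1 partner Cntn1 by 0.21. In thalamus Rtn4r and Rtn4rl1, Nogo receptor family genes, fell by 0.60 and 0.43, the chondroitin sulfate receptor Ptprs fell by 0.31 and the integrin Itgb1 rose by 0.37. Medians were -0.03 and 0.00.

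Each lectican gene has a link protein gene beside it. In the positions that the files list, which the labels tie to Rnor_5.0, Acan lies on chromosome 1 from 141732129 to 141793990 and Hapln3 starts 2016 bases from its end. On chromosome 2, Hapln1 and Vcan lie 69428 bases apart and Bcan and Hapln2 20604 bases apart. On chromosome 16 the Ncan locus and 1 of the Hapln4 loci have the same interval, 20900030 to 20991582, so how reads were divided between Ncan and Hapln4 is uncertain. Hapln1 fell in both regions and Vcan passed in neither. Bcan and Hapln2 both passed in neither, and of Ncan and Hapln4 only Ncan was tested, passing in neither. Acan fell in both regions while Hapln3 stood at 0.18 in cortex and 0.15 in thalamus and passed in neither. The cortex calls of Acan and Hapln1 were lost in 10 and 9 of 24 alternatives.

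Among themselves, the members were compared by Pearson's r of their deviations from the 4 group means over 24 libraries, which come in pairs from 12 rats and share depth and dissection, and are given as a description. The highest of the 36 values was between Vcan and Tnr, at 0.75 (Spearman 0.76, and 0.62 without the 2 libraries farthest out). It was followed by Bcan and Hapln2 at 0.64 (Spearman 0.67, 0.58 without 2 libraries) and Vcan and Ptprz1 at 0.59 (Spearman 0.60, 0.58 without 2 libraries). Acan and Hapln1, which fell together between groups, stood at 0.15, Acan and Tnc at -0.05, and Hapln1 and Tnc at -0.25.

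By the same measure over all loci past the filter, Acan was most like Cntnap5b (0.80) and Ccnjl (0.73), Hapln1 like Arpp19 (0.87) and Sypl1 (0.84), and Tnc like Vangl1 (0.78) and Tdp1 (0.77). Bcan was most like Git1 (0.87), Ncan like Dock3 (0.77), Vcan like Fat1 (0.87), Hapln2 like Plekhg3 (0.86) and Tnr like Dst (0.89). Ptprz1 was most like Slc4a4 (0.83) and Slc1a2 (0.82), the latter the main glutamate transporter of astrocytes. All these loci were picked as the highest over 15678 loci, a choice that by itself favours high values, and no r was tested.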

How the data were processed

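Messenger RNA of 24 libraries was analysed, from 2 regions of 6 TBI and 6 sham-operated rats grouped by their labels. According to the methods and labels, the authors aligned stranded reads with TopHat2 2.0.11 and Bowtie2 2.2.2, assembled loci with Cufflinks 2.2.1, and normalized them with Cuffdiff. The methods name RGSC3.4 as genome and Rnor_5.0 as annotation, and the labels Rnor_5.0. The deposited signal values are fragment counts per locus, brought to a common scale by the authors with 1 size factor per library. In all 24 libraries 100% of low values were whole multiples of 1 step within 0.1, so whole reads were recovered, 30568927 to 54608922 per library. Loci without a name, 15693 with 1.90% to 2.23% of values, were left out.

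TBI and sham rats were compared in each region with limma 3.58.1 in R 4.3.3 (trend) on log2(value + 1), for named loci with a mean of at least 10, with Benjamini-Hochberg adjustment over all loci and a threshold of 0.05. Interaction and region contrasts used 1 fit over 24 libraries. The rat numbers in the labels mark the same animal. The 2 libraries of a rat deviated together with a median r of 0.187 (0.00393 to 0.569, 10 of 12 over 0.1), against -0.0332 between rats, and the fit with the rat as a block was an alternative. On the recovered reads edgeR 4.0.16 called 4435 loci in cortex and 5122 in thalamus, and DESeq2 1.42.0 4964 and 5690. Other alternatives were TMM and upper quartile scaling, filters, pseudocounts of 0.1 and 5, a threshold of 0.01, summed loci, all libraries in 1 fit and leaving out each library. TMM over loci past the filter, leaving out rat 45 and levels relative to markers were chosen after seeing the data. Tables were handled with pandas 2.3.3 in Python 3.11.15 and drawn with matplotlib 3.10.9.

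Named are all 10 members, of each related list up to 4 called genes with the largest change per region, and for each member the loci with the highest r. Hapln3, Nptx2, Adamts4 and marker genes are named beside them. One gene of a related list is not reported here. Members and lists were chosen with earlier results of these data known. Within a region each library is 1 rat, so p-values of TBI against sham measure spread between rats. The main interaction and region fits had no term for the rat, so their p-values treat the 2 libraries of a rat as independent. Counting floors cover counting error only.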

Additional observations from a re-analysis of the deposited data

Results flagged for a closer look

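The injury effect on Acan and on Tnc differed between the regions by the interaction test of limma. For Acan the effect in thalamus minus that in cortex was -0.87 on the log2 scale (adjusted p = 0.000204), and all 6 TBI thalamus libraries lay under all sham ones. For Tnc it was -1.81 (adjusted p = 3.33e-07), with all 6 TBI cortex libraries above all sham ones and 4 of 6 TBI thalamus libraries under all sham ones. No member held a library far from the other 5 in any of the 36 groups of 6 examined by Dixon's criterion, which chance alone would meet in about 1 of 20 groups.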

How the results depend on the processing

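Of 1413 member values under alternatives, 1351 kept their direction and side of the threshold, 32 lost and 5 gained a call, and 25 changed sign, all of the latter from values that passed no test. The calls of Acan, Hapln1 and Tnc in thalamus, Tnc in cortex, and Acan and Tnc in the interaction were kept under every alternative run, and the rat as a replicate block changed no call of a member. In cortex 3 called members became 1 (Tnc) at a threshold of 0.01, and 1 to 4 with each library left out, with 1 without sham rat 26, TBI rat 45 or TBI rat 56. The number of called loci fell at 0.01 from 4531 to 2436 in cortex, from 5516 to 3429 in thalamus and from 1138 to 404 in the interaction. Lower calls made up 47.8% in thalamus under TMM over loci past the filter, against 57.9% with TMM over all named loci. In the interaction they made up 62.5% with the deposited values, 64.1% with TMM over all named loci and 58.7% with DESeq2. There they made up 47.0% under TMM over loci past the filter and 48.1% with edgeR.

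Signs changed near 0. Thalamus Tnr turned to 0.0019 with TMM over loci past the filter and to 0.013 with edgeR, and Hapln2 to 0.0047 with edgeR. The Vcan interaction turned to 0.028 with that TMM, 0.014 with upper quartile scaling, 0.033 with edgeR and 0.010 with DESeq2. The Tnr region difference in TBI rats turned to 0.0030, 0.0055 and 0.0084 with that TMM, upper quartile scaling and edgeR. With libraries left out in turn, thalamus Hapln2 ranged from -0.13 to 0.0065, the Vcan interaction from -0.065 to 0.059, the Tnr interaction from -0.017 to 0.069, and the Tnr region difference from -0.069 to 0.010 in sham and -0.053 to 0.029 in TBI rats. The cause was not tested. With 6 rats per group, an interval that spans 0 does not show that a difference is absent. The table carries no gene lengths, so levels of different genes were not compared.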

Other observations

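Partners of the lecticans also differed between the regions of sham rats. Of 6 measured lectican proteases 4 were higher and 1 lower in thalamus, with a median of 0.74 on the log2 scale against 0.03 over all loci. Of all loci 61.4% were called in this comparison, 33.5% higher and 27.9% lower, so such calls are common. The examples that follow were chosen after their values were seen. Adamts4 lay between 1982 and 3265 in sham thalamus and between 678 and 872 in sham cortex, a difference of 1.66 ± 0.093 (SE, adjusted p = 3.21e-14 by limma), and Adamts15 differed by 1.11 and Adamts8 by -1.87. Sema3a, the net-bound guidance protein, lay between 26.7 and 142 in sham thalamus and between 1696 and 2575 in sham cortex, a difference of -5.31 ± 0.318 (SE, adjusted p = 1.25e-13 by limma). In TBI rats these differences were 1.43 for Adamts4 and -4.98 for Sema3a.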
